A study of Homo sapiens with 7 samples.

Results

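The genes described here are those of 6 families of solute carriers that move amino acids across cell membranes, or that encode subunits of such carriers: SLC1, SLC3, SLC7, SLC36, SLC38 and SLC43. Members were taken by symbol, as all protein-coding genes of the RefSeq table for hg38 whose names begin with SLC1A, SLC3A, SLC7A, SLC36A, SLC38A or SLC43A. This gave 42 of 20037 protein-coding genes. One of them, SLC7A6OS, lies opposite SLC7A6 and encodes no carrier, and SLC43A3 encodes a carrier of purine nucleobases; both were kept because the symbol rule takes them. A Myc peak was assigned to a gene when its summit, the position of highest signal, lay in the gene or within 1 kb of it. On this count 84 of the 47016 Myc peaks on the nuclear chromosomes fell to the 42 genes.

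The peaks come from CUT&RUN, in which an antibody directs a nuclease to a protein on chromatin and the freed DNA is sequenced. HT29, an established colon cancer cell line, was treated with oleic acid for 6 h in serum-free medium before the assay. By title, 3 libraries were Myc, 3 were IgG and 1 was input, and the same Myc antibody is named for the IgG and the Myc libraries. No untreated group was used here and the deposited list holds 1 value per peak, so neither an effect of oleic acid nor a spread between libraries can be given. The cell type could not be checked against marker levels, since no expression was measured.

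Amino acid carriers supply the substrates for protein and nucleotide synthesis and pass the signal of amino acid supply to the kinase mTORC1. Many of them work as exchangers: a neutral amino acid such as glutamine is taken up by one carrier and traded by another for leucine. The light chains of the SLC7 family that do this are held at the membrane by a heavy chain of the SLC3 family. Myc is known as a regulator of glutamine uptake, and it binds DNA together with MAX, with the E-box CACGTG as its best-known site.

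Promoter sequences are shown first for 6 genes on which the following results turn. SLC7A1 had the highest fold of the 42 genes. SLC7A5 and SLC43A1, both carriers of large neutral amino acids, held the E-box before a start with a peak of high fold. SLC38A7 held it just after a start with a weak peak, SLC38A9 had a summit inside the printed window and none of the letters searched, and SLC3A2 is the heavy chain of several light chains. The sequences are from RefSeq (GRCh38.p14), run 5′ to 3′ on the strand of the gene, and go from 250 bases before the listed start to the 50 bases from it on. Capitals mark the E-box CACGTG, its variant form CACGCG or the pattern TGATGNAA on either strand. A match on the other strand reads CGCGTG for the variant and, in SLC3A2, TTACATCA for the last pattern, which is the core of the element through which ATF4 acts on amino acid starvation.
SLC7A1, chr13:29595639-29595938, minus strand: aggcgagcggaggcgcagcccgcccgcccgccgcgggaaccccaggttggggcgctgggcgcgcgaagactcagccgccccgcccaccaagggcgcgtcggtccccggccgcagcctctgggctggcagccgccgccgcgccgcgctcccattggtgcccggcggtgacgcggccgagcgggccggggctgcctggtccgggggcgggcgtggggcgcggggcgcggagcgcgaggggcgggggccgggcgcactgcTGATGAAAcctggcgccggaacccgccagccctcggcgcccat
SLC7A5, chr16:87869458-87869757, minus strand: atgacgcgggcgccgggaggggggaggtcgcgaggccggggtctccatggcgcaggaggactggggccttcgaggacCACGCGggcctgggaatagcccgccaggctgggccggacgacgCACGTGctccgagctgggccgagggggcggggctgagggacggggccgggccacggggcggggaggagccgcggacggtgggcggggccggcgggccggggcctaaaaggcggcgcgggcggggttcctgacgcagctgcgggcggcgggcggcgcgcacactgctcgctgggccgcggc
SLC43A1, chr11:57515653-57515952, minus strand: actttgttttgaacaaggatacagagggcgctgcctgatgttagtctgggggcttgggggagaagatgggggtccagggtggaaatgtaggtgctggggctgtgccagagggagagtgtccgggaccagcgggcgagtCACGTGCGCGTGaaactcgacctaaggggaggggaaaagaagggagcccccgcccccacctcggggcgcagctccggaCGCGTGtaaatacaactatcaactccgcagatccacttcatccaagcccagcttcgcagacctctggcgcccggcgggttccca
SLC38A7, chr16:58684721-58685020, minus strand: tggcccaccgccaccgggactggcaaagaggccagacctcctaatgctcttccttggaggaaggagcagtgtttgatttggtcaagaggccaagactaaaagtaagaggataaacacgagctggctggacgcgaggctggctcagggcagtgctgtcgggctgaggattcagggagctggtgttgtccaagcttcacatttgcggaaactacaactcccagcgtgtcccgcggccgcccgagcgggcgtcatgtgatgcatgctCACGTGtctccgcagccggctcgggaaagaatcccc
SLC38A9, chr5:55712286-55712585, minus strand: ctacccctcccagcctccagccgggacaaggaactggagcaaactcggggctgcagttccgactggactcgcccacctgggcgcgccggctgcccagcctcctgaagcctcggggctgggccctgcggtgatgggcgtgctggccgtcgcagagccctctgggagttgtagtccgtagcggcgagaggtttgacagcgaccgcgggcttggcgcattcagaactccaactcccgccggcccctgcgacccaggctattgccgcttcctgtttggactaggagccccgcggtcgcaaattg
SLC3A2, chr11:62881449-62881748, plus strand: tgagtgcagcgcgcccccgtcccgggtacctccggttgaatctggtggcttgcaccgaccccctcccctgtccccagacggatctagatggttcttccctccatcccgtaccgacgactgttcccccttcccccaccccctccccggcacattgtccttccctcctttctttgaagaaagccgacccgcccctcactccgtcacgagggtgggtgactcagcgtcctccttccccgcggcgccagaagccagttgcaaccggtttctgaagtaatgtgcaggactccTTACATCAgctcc

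Myc peaks were listed at 30 of the 42 genes (71.4%, Wilson 95% interval 56.4 to 82.8). The same count over all protein-coding genes gave 68.8%, so the families together stood near the background. When peaks shared by more than 1 coding gene were left out, 66.7% of the members and 55.5% of all genes had one. A summit lay no more than 1 kb from one of the gene's ends at 19 of the 42 (45.2%, 31.2 to 60.1), against 56.4% of all genes. The strongest peak reached a fold of at least 10 at 11 genes (26.2%, 15.3 to 41.1), against 22.1% of all genes. Fold here is the authors' enrichment at the summit, the number of overlapping Myc fragments (the pileup) plus 1 over the control level plus 1. The median fold of the strongest peak was 8.02 over the 30 genes with a peak and 7.83 over the 13793 such genes in the genome. The order of these medians turned without shared peaks (6.78 against 6.96) and without SLC7A6OS (7.48 against 7.83), so it gives no direction.

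The share of genes with a peak varied between families, but the Wilson interval of every family took in the 68.8% of all protein-coding genes. SLC38 had peaks at 11 of 12 genes (91.7%, 64.6 to 98.5), SLC36 at 3 of 4, SLC1 at 5 of 7, SLC43 at 2 of 3 and SLC3 at both of its genes. SLC7, the largest family, had peaks at 7 of 14 (50%, 26.8 to 73.2). The intervals of SLC38 and SLC7 overlapped, and the difference between families was not tested. Strength followed another order: the median fold of genes with a peak was 11.7 in SLC7, 11.6 in SLC3, 10.8 in SLC43, 8.56 in SLC38, 6.09 in SLC1 and 3.63 in SLC36. The place of SLC7 rests on SLC7A6OS, which encodes no carrier: without it the SLC7 median was 9.61, below SLC3 and SLC43. The SLC3 median is only the midpoint of 2 genes, SLC3A1 at 5.94 and SLC3A2 at 17.3. SNHG1 also lies within 1 kb of the latter summit, and the SLC3A2 peak near the listed start had 11.99. The order of the family medians therefore rests on few genes. Within SLC7 the genes spread widely: 7 had no peak, 4 had a fold above 10, and SLC7A11, SLC7A14 and SLC7A9 had lower ones.

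**Figure D1:**
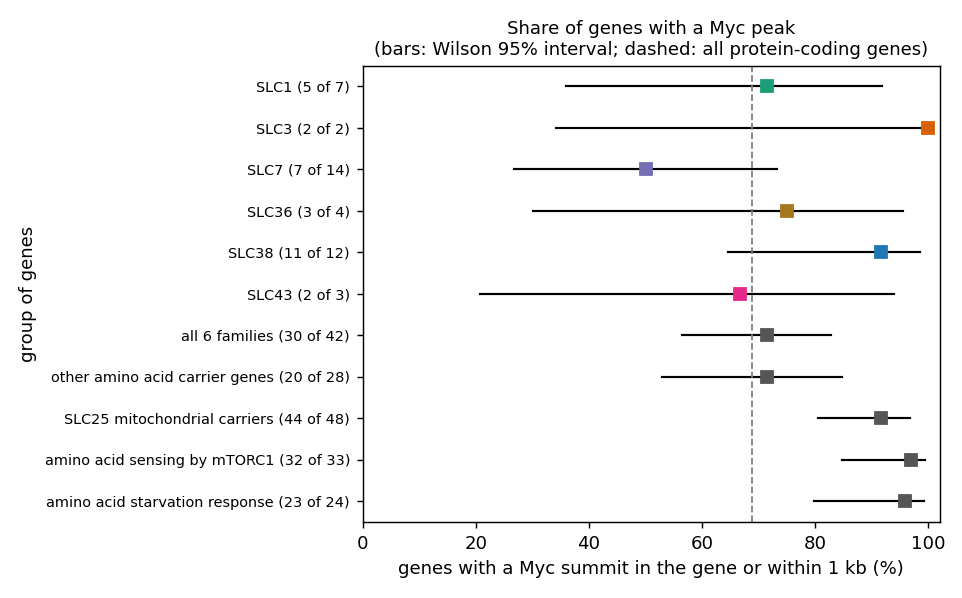
Share of genes with a Myc summit in the gene or within 1 kb (x axis, %), by group of genes (y axis, with counts); squares are shares, bars Wilson 95% intervals, and the dashed line is the 68.8% of all protein-coding genes. Among the families SLC38 has the highest share after SLC3 and SLC7 the lowest, at 50%, and the 2 lists of amino acid sensing and starvation genes lie above 95%.

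Gene length bears on a count that takes in the whole gene. The median length was 46.8 kb for the 42 genes and 24.1 kb for all protein-coding genes. Of 26 members between 30 and 100 kb long, 21 had a peak (80.8%), and of all genes of that length 80.4% did. Of 10 members between 10 and 30 kb, 5 had one (50%), against 72.3% of all such genes. All 4 members above 100 kb had a peak, against 78.5%, but their median fold was 4.83, against 7.34. The 2 members below 10 kb, SLC7A3 and SLC7A4, had none, and 48.7% of all genes of that length had one. In all, the 42 genes held 3.53 summits per 100 kb, and all protein-coding genes 2.51. The first value is raised by SLC7A1 and SLC7A5, with 11 and 9 of the 84 summits (12.5 and 21.7 per 100 kb). How much of the difference they make up was not computed.

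The heavy chain gene SLC3A2 and the gene of the glutamine exchanger SLC1A5 were among the most enriched. SLC1A5 (chromosome 19, 46774883 to 46788594), which encodes ASCT2, had a fold of 19.1 (Poisson 95% interval 15.9 to 22.8) at 46786737, from 122 fragments over a control level of 5.43. SLC3A2 (chromosome 11, 62856109 to 62888860), which encodes the heavy chain CD98hc, had 17.3 (14.6 to 20.4) at 62856241, from 141 fragments over 7.20. SNHG1 also lies within 1 kb of that summit, and the SLC3A2 peak near the listed start had a fold of 11.99. SLC7A1 (chromosome 13, 29509414 to 29595688), the gene of a carrier of arginine and lysine, had the highest fold, 22.0 (19.4 to 24.9) at 29594477, with 252 fragments over a control level of 10.5. The intervals of these 3 genes overlapped from one to the next in the order of fold. Indeed, every gene overlapped its next neighbour down the whole list of 30, so only genes farther apart in it can be told apart by counting error. Intervals cover the counting of fragments alone and hold the control level fixed.

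**Figure D2:**
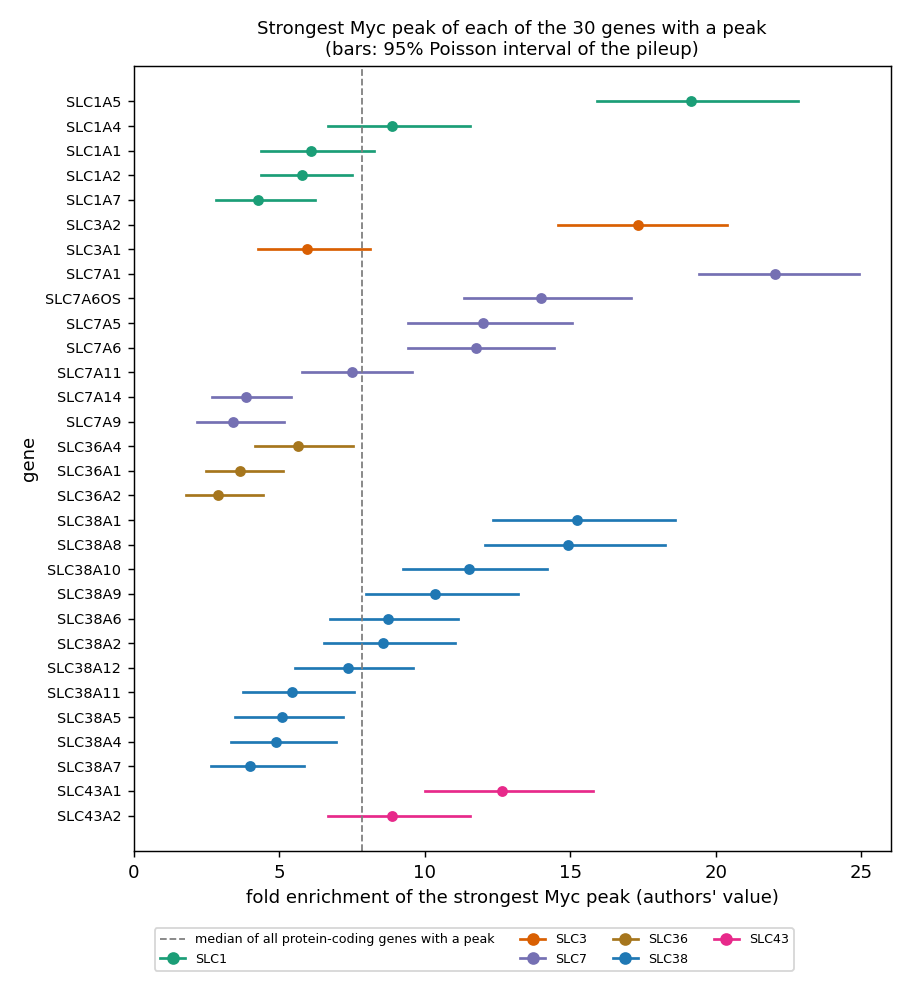
Fold enrichment of the strongest Myc peak (x axis, authors' value) for the 30 genes with a peak (y axis), coloured by family; points are folds, bars 95% Poisson intervals of the pileup, and the dashed line is the median of 7.83 over all protein-coding genes with a peak. SLC7A1, SLC1A5 and SLC3A2 lie farthest to the right, and all 3 SLC36 genes lie left of the line.

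Among the light chains that pair with SLC3A2, peaks ranged from high folds to none. SLC7A5 (chromosome 16, 87830023 to 87869507), the leucine carrier LAT1, had a fold of 11.98 (9.41 to 15.0) at 87868692, with 72 fragments over 5.09. SLC7A6 (chromosome 16, 68264526 to 68301819), which exchanges cationic for neutral amino acids, had 11.7 (9.43 to 14.5) at 68265310, with 87 fragments over 6.50. SLC7A11 (chromosome 4, 138164097 to 138242349), the cystine and glutamate exchanger xCT, had 7.48 (5.76 to 9.55) at 138242121, with 62 fragments over 7.43, close to the genome-wide median. No summit was listed in or within 1 kb of SLC7A7, SLC7A8 and SLC7A10, which also encode partners of SLC3A2; the nearest lay 6407, 29641 and 9428 bp away. The light chain genes thus fell apart into 3 with a peak near or above the median and 3 without one.

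The other heavy chain and its partner, which take up cystine and cationic amino acids in kidney and intestine, had weaker peaks. SLC3A1 (chromosome 2, 44275480 to 44322437) had a fold of 5.94 (4.25 to 8.10), from 38 fragments over 5.57, at 44291583, a summit 16103 bp above the lower end and 3.54 at one near that end. SLC7A9 (chromosome 19, 32830511 to 32869767) had 3.42 (2.18 to 5.15) from 21 fragments over 5.43, at 32846393, a summit 23374 bp inside the 5′ end. SLC7A13, another light chain, had no summit within 37270 bp. Of the remaining cationic carriers and related genes, SLC7A2, SLC7A3 and SLC7A4 had none, the nearest being 44008, 137206 and 14131 bp away, and SLC7A14 had 3 inside the gene with a highest fold of 3.87. SLC7A6OS, with a fold of 14.0 (11.4 to 17.1) from 95 fragments over 5.86 at 68311138 of chromosome 16, shared its summit with the neighbouring gene PRMT7.

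In the SLC1 family, the carriers of neutral amino acids had the higher folds. Besides SLC1A5, SLC1A4 (chromosome 2, 64988479 to 65023865), which encodes ASCT1, had 8.86 (6.68 to 11.5), from 53 fragments over 5.09, at 64988576, a summit 97 bp inside its 5′ end. Among the glutamate carriers, SLC1A1 had a highest fold of 6.09 (4.37 to 8.27), 18029 bp inside the gene, and 5.20 at its 5′ end, where the summit also lay in or near GLIS3. SLC1A2, whose protein clears glutamate in the brain, had 7 summits, all inside the gene, with folds from 3.03 to 5.78. SLC1A7 had 2, at 4.27 and 3.54. No summit was listed for SLC1A3 and SLC1A6, with the nearest at 2336 and 114973 bp.

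The SLC38 genes, mostly carriers of glutamine and other small neutral amino acids, had a peak at every gene but SLC38A3. Of the genes of the sodium-coupled type known as system A, SLC38A1 (chromosome 12, 46183063 to 46269043) had a fold of 15.2 (12.3 to 18.6), with 94 fragments over 5.24, at 46268851, a summit 192 bp inside its 5′ end. SLC38A2 (chromosome 12, 46358188 to 46372773) had 8.56 (6.53 to 11.0) at 46371617, with 58 fragments over 5.89, and SLC38A4 had 4.89 (3.33 to 6.95). Of system N, which also moves glutamine, SLC38A5 had 5.09 (3.49 to 7.19), and SLC38A3 had no summit within 6403 bp. SLC38A9 (chromosome 5, 55625845 to 55712335), the lysosomal carrier that reports arginine to mTORC1, had 10.3 (7.97 to 13.2) at 55712546, with 62 fragments over 5.09. SLC38A7, another lysosomal carrier, had 4.001 (2.64 to 5.83). SLC38A10 (chromosome 17, 81244811 to 81295307) had 11.5 (9.25 to 14.2) at 81295501, with 86 fragments over 6.55. SLC38A6, SLC38A12 (also named TMEM104) and SLC38A11 had 8.72, 7.35 and 5.42. The summits of SLC38A6 and SLC38A12 were shared with TRMT5 and NAT9.

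The peak of SLC38A8 lay far from the 5′ end of the gene. It had 1 summit, with a fold of 14.9 (12.1 to 18.3), from 92 fragments over 5.24, at position 84014406 of chromosome 16. That is 28966 bp inside the 5′ end of the gene (84009667 to 84043372) and 4739 bp from its other end. No other RefSeq gene of any type lay within 1 kb of it, and its fold exceeded that of 97.2% of the list. Among the 11 genes with a fold of at least 10, it was the one whose strongest peak did not cover the 5′ end of the gene. A strongest peak off the 5′ end was also found in 875 of the 3768 protein-coding genes with a known strand and such a fold. That count takes in peaks that miss the 5′ end by any distance, and summits as deep as this one were not counted.

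SLC36 and SLC43 stood at opposite sides of the median. SLC36A4 (chromosome 11, 93144174 to 93197991) had a fold of 5.65 (4.16 to 7.52), with 45 fragments over 7.14, at 93197728, a summit 263 bp inside its 5′ end. SLC36A1 (chromosome 5, 151344596 to 151556085), the proton-coupled carrier of lysosome and gut, had 3.63 (2.49 to 5.14), with 30 fragments over 7.53, at its single summit, 151447988. SLC36A2 had 2.90 (1.80 to 4.45), and SLC36A3 had none within 12212 bp. SLC43A1 (chromosome 11, 57484534 to 57515702), the large neutral amino acid carrier LAT3, had 12.6 (9.99 to 15.8) at 57514799, with 76 fragments over 5.09. Its relative SLC43A2 (chromosome 17, 1569254 to 1630088) had 8.86 (6.68 to 11.5) at 1628615, with 53 fragments over 5.09, and SLC43A3 had no summit within 3185 bp. All values in SLC36 were under the genome-wide median of 7.83, and both in SLC43 were above it.

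Pairs of genes with coupled roles or close kinship were compared by an exact conditional binomial test of their pileups at their control levels (two-sided, adjusted with the Benjamini-Hochberg method). Of 12 pairs, 10 had a peak at both genes and 9 of these differed at an adjusted p under 0.05, or 8 on raw pileups. The share of calls among pairs of other genes was not computed, so this count is no result about coupled genes. Strongest folds spread widely over all protein-coding genes with a peak, with quartiles of 5.36 and 11.1. Ratios of pairs are of the pileup over the control level plus 1, so they differ slightly from ratios of the printed folds. The heavy chain gene SLC3A2 was above each light chain gene tested: 1.46 times SLC7A5 (95% interval 1.09 to 1.96, adjusted exact p = 0.0146), 1.48 times SLC7A6 (1.13 to 1.96, adjusted exact p = 0.00711) and 2.34 times SLC7A11 (1.72 to 3.20, adjusted exact p = 8.38e-08). All of these ratios use the peak at the outer 5′ end of SLC3A2, where SNHG1 also lies, and the first 2 differences rest on it. SLC7A11 has no listed start, so its pair was not tested at the listed starts. At the start that RefSeq lists, 494 bp before which SLC3A2 had a second strong peak with a fold of 11.99, the ratio was 1.01 (0.744 to 1.37) to SLC7A5 and 1.03 (0.770 to 1.37) to SLC7A6, and neither passed (adjusted exact p = 1 for both). SLC3A1 was 1.77 times SLC7A9 (1.01 to 3.18, adjusted exact p = 0.0461).

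Of exchangers that work on the same substrates, SLC1A5 stood 1.61 times above SLC7A5 (1.19 to 2.18, adjusted exact p = 0.00302) and 2.18 times above SLC1A4 (1.57 to 3.07, adjusted exact p = 3.35e-06). SLC38A1 was 1.79 times SLC38A2 (1.28 to 2.53, adjusted exact p = 0.00112). With summits at gene ends only, the log2 ratio rose from 0.84 to 2.06 (adjusted exact p = 7.15e-11), because the strongest summit of SLC38A2 lies 1156 bp inside the gene and its weak peak past the 3′ end, with a fold of 3.78, takes its place. SLC43A1 was 1.43 times SLC43A2 (0.997 to 2.08, adjusted exact p = 0.0481), where the interval, by another exact method, still took in equality, and the call was lost on raw pileups (adjusted exact p = 0.0581). SLC36A1 was below the lysosomal SLC38A9, at 0.346 times (0.216 to 0.543, adjusted exact p = 3.35e-06), and its ratio of 0.636 to SLC36A4 (0.387 to 1.03) did not pass (adjusted exact p = 0.064). SLC7A8 and SLC7A2 had no peak, so their pairs with SLC7A5 and SLC7A1 were not tested. These tests compare fragment counts at 2 sites in pooled libraries and take no account of variation between libraries. The strongest of several peaks was used, so a gene with many summits had more chances of a high value.

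**Figure D3:**
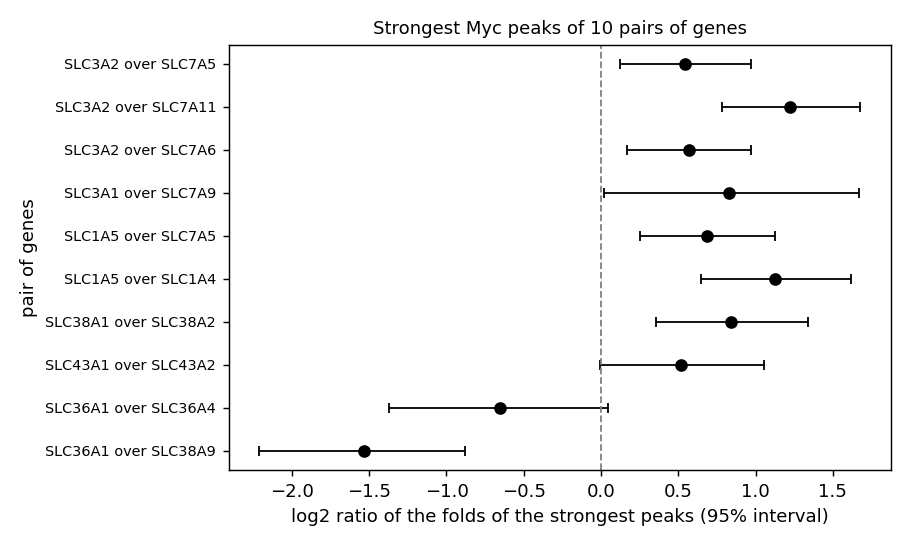
Log2 ratio of the folds of the strongest Myc peaks (x axis) for the 10 tested pairs of genes (y axis); points are ratios and bars exact 95% intervals, with the dashed line at equal folds. SLC3A2 over SLC7A11 lies farthest to the right and SLC36A1 over SLC38A9 farthest to the left, and the intervals of SLC43A1 over SLC43A2 and SLC36A1 over SLC36A4 reach the line.

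SLC7A1 and SLC7A5 held many separate peaks, while the other 9 genes with a fold of at least 10 had 1 to 3. SLC7A1 had 11 summits, 1 of which lay 914 bp beyond its 3′ end. The strongest was near the 5′ end, and the other 10 had folds from 2.26 to 6.32. The control level at all 11 lay between 6.96 and 12.1, above the median of 5.71 over the 84 peaks; the part of this level in the folds was not tested. SLC7A5 had 9 summits in a gene of 39.5 kb, with folds of 11.98 and 4.33 nearest the 5′ end, then 5.25, 7.92, 3.28, 5.47, 8.53, 3.85 and 3.45 going into the gene. Of the 6827 protein-coding genes with a length from 0.5 to 2 times that of SLC7A5, 88 (1.29%) had as many summits, and for SLC7A1 it was 101 of 5345 (1.89%). By contrast, SLC38A9, with 86.5 kb about as long as SLC7A1, had 1 summit.

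**Figure D4:**
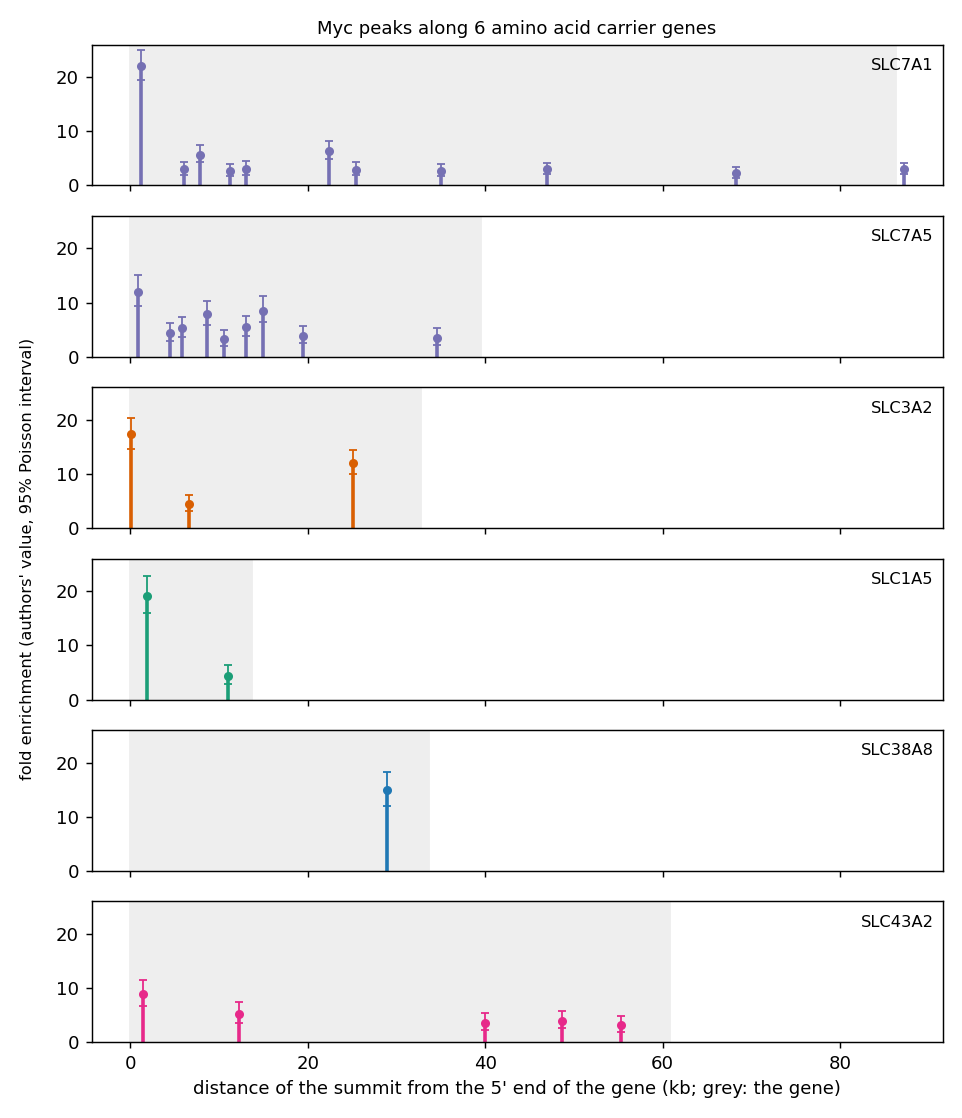
Fold enrichment of each Myc peak (y axis, authors' value with 95% Poisson interval) by the distance of its summit from the 5′ end of the gene (x axis, kb) for 6 genes; grey marks the gene. SLC7A1 and SLC7A5 hold 11 and 9 summits, SLC3A2 has strong peaks at both its outer and its inner start, and the only peak of SLC38A8 lies deep in the gene.

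Strong peaks often covered the 5′ end of the gene with a summit well inside it. The strongest peak covered the 5′ end in 17 of 27 members with a peak and a known strand (63.0%), and in 62.3% of all such genes. In 6 of these 17 (35.3%) the summit lay 500 bp or more inside the gene, which held for 9.47% of the 7041 genes in all; this distance was chosen after the positions were seen, and the difference was not tested. The 6 were SLC1A5 (1857 bp), SLC7A1 (1211), SLC38A2 (1156), SLC43A1 (903), SLC7A5 (815) and SLC7A6 (784). Their peaks were 2184 to 5988 bp wide. This follows in part from the choice, since such a peak must reach from the 5′ end past its summit. The window of 1 kb therefore splits like genes: the summits of SLC43A1, SLC7A5 and SLC7A6 count as lying at an end, and those of SLC38A2, SLC7A1 and SLC1A5 do not. Over the 30 genes with a peak, the strongest summit lay more than 1 kb from both ends in 15 (50%), against 29.1% of all genes with a peak. The members are longer (median 46.8 kb, against 24.1 kb for all protein-coding genes), and no share among genes of like length was taken. The 19 peaks at ends had a median fold of 8.72, and the 65 farther inside 3.87.

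The strongest peak of SLC3A2 lay 132 bp inside the outer 5′ end of the gene, where SNHG1 and the small nucleolar RNAs it hosts also lie within 1 kb. A peak there cannot be assigned to SLC3A2 rather than to SNHG1. In SLC38A1 the strongest summit likewise lay at the outer 5′ end, 2335 bp before the start that RefSeq lists, and within 1 kb of the non-coding LOC105378248. SLC43A2 had its strongest summit 1473 bp inside the outer 5′ end and 23581 bp before the listed start. In these 3 genes the highest summit thus lay at the outermost annotated end or near it, not at the listed start, although the peak of SLC38A1 was wide enough to reach that start.

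Promoter sequences were found for 33 of the 42 genes and searched for the 3 patterns on both strands. CACGTG was in 5 of 33 (15.2%) and in 8.88% of all 15842 protein-coding promoters in the table. The 5 were SLC7A5, 130 bp before the start, SLC43A1, 112 bp before, SLC38A5, 206 bp before, SLC1A7, 60 bp before, and SLC38A7, 14 bp after. Among the 15 members with a summit within 1 kb of the listed start, 3 held it (20%), against 10.6% of the 9101 such genes in all, and among the 18 others 2 did (11.1%), against 6.54%. These others include SLC7A1, SLC1A5, SLC38A1 and SLC38A2. Their strongest peaks covered the listed start with summits more than 1 kb from it, and none of these genes held CACGTG. The split between members therefore depends on the limit of 1 kb. In the SLC43A1 sequence printed above, CACGTG runs directly into CGCGTG, a match to the variant on the other strand, and a second CGCGTG lies 34 bp before the start. CACGCG was in 6 of 33 (18.2%; 14.8% of all promoters), among them SLC7A5, 173 bp before the start. TGATGNAA was in 4 of 33 (12.1%; 2.53% of all), in SLC7A1 and SLC3A2 just after the start, in SLC38A1 just before it and in SLC1A3. No match overlapped another. These are matches of letters in a window of 300 bases, and the summits of SLC7A5 and SLC43A1 lie outside that window.

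Genes that sense or respond to amino acid supply were listed with peaks at a higher share than the carriers themselves. Of 33 genes of amino acid sensing by mTORC1, 32 had a peak (97.0%, 84.7 to 99.5) and 15 a fold of at least 10 (45.5%), with a median of 9.74. Over all protein-coding genes the shares were 68.8% and 22.1%. The highest were ITFG2 (21.1) of the KICSTOR complex, MLST8 (17.5), a subunit of mTORC1, and LAMTOR2 (17.3, a summit shared with UBQLN4), which anchors the Rag GTPases; RRAGD had none. Of 24 genes listed for the amino acid starvation response, 23 had one (95.8%, 79.8 to 99.3), with a median of 10.3. The list also holds kinase genes of other stresses, EIF2AK1 among them. It was led by the GCN2 activator gene GCN1 (22.3), EIF2AK1 (20.4) and ATF5 (17.5, shared with NUP62 and IL4I1). NUPR1 had none. The genes of ATF4 itself (11.98) and of the asparagine synthetase ASNS (14.8) are named after their values were seen. Genes with a peak made up 71.4% of both the 42 members and a list of 28 other amino acid carrier genes (20 of 28, median fold 6.08), led by SLC25A44 (16.7, shared with PMF1), SLC25A13 (15.2) and SLC25A22 (14.1, shared with PANO1). Of 48 SLC25 mitochondrial carriers 44 had a peak (91.7%, 80.5 to 96.7), and of 344 SLC genes outside the 6 families 253 did (73.5%, 68.6 to 77.9). The lists were chosen with earlier results of these data known and were not tested against each other.

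The 84 peaks themselves were like the list as a whole. Their median fold was 4.27, against 4.11 over all peaks, and their median width 782 bp against 688 bp. Pileups ranged from 15 to 252 fragments, with a median of 30.5, and control levels from 5.09 to 12.1. At 15 fragments a fold is known only loosely, and a gene without a peak is one where no site passed the authors' threshold at this depth.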

How the data were processed

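The deposited data used here are 1 narrowPeak list for the series. The submitters' processing notes name the peak caller MACS2 2.1.2, the aligner BWA 0.7.15 and the build hg38, with no order of steps. They also list HOMER 4.11.1, deepTools 3.5.0, Picard 2.19.0, SAMtools 1.5 and FastQC 0.11.7. Which library served as control, how replicates were joined and which settings were used: not given in the sources used here. Groups follow the titles. The authors deposited a fold (ratio) of pileup over control, −log10 p, −log10 q and a score per peak.

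Pileup and control level were solved from the fold and the p-value, and matched within 0.001 for all 84 peaks. On 235 simulated peaks, 100% were recovered. Genes came from RefSeq (GRCh38.p14), with strand and start for those with a promoter entry. Intervals are 95%: Wilson for shares, exact Poisson for folds. No molecular identifiers are named in the labels, so intervals cover counting error only. The rule for named genes gives full values to the 10 highest folds and to paired genes, the fold to other members, and from each list its 3 highest folds and up to 5 genes without a peak. Pileups of paired genes were compared by an exact conditional binomial test; alternatives changed the window, thresholds, shared peaks and the peak used. Members and lists were chosen with earlier results of these data known. Python 3.11.15 and SciPy 1.17.1 were used.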

Additional observations from a re-analysis of the deposited data

How the results depend on the processing

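The number of genes with a peak was recomputed with windows of 500 bp, 2 kb and 5 kb, −log10 q of at least 5, fold of at least 4, overlap of whole peaks, shared peaks left out, summits at gene ends only and, added after seeing the data, without SLC7A6OS. Only summits at gene ends moved the total by over 1.5 times, to 19 of 42 genes, with SLC1 at 2, SLC36 at 1 and SLC43 at 1. A fold of at least 4 left SLC36 with 1. Taking 1 peak per interval removed no peak and so tested nothing. The median fold ranged from 6.78 (6.96 over all genes) without shared peaks to 8.79 (8.50 over all genes) at a fold of at least 4. Among pairs, SLC43A1 over SLC43A2 kept a log2 ratio of 0.52 on raw pileups but did not pass (adjusted exact p = 0.0581). At the RefSeq start, an alternative added after seeing the data, SLC3A2 over SLC7A5 had a log2 ratio of 0.0089 and over SLC7A6 of 0.035; 2 pairs could be tested there and 4 at gene ends. No pair reversed. No paired analysis was possible because the list holds no values per library, and for the same reason no replicate could be left out.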
